A study of Mus musculus with 24 samples.

Results

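The genes described here encode the major adhesion receptors of the platelet surface and the most abundant chemokines of its granules: Gp1ba, Gp1bb, Gp5, Gp9, Gp6, Itga2b, Itgb3, Treml1, Pf4 and Ppbp. They were taken from the arrays by gene name, which gave 10 genes and 13 probes of 39429 probes that are not controls, and all 10 were among the 17470 genes that passed the filters on dim and unvarying genes. Blood RNA came from 24 male C57BL/6J mice in 4 groups of 6. Young (2 months) and old (21 months) mice were either sham-handled (unirradiated) or given 4 Gy of total body x-rays, and blood was drawn by cardiac puncture 24 h later from all of them. Each mouse was measured on 1 single-colour (Cy3) Agilent array, so replicates are separate animals. The question was how irradiation and age, alone and together, moved the signals of these genes.

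Platelets are cell fragments without a nucleus, shed by megakaryocytes, whose RNA they carry into the circulation. The GPIb-IX-V complex (Gp1ba, Gp1bb, Gp9 and Gp5) tethers platelets to von Willebrand factor on an injured vessel wall, Gp6 is the signalling receptor for collagen, and the integrin made of the Itga2b and Itgb3 chains binds fibrinogen and links platelets to each other. Treml1 is a receptor kept in alpha granules until activation. Pf4 and Ppbp encode chemokines that are stored in the same granules and released with them. GATA1 and proteins of the ETS and RUNX families are known regulators of megakaryocyte genes.

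The upstream sequences of these genes are shown as a description, and their part in the signals was not tested. RefSeq (GRCm38.p6) gave a start region for 9 of the 10 genes, all but Itgb3. The 250 bases before the annotated start were searched on each strand for GATA-type words (AGATAA or TGATAA), ETS-type words (AGGAAG or CGGAAG) and 1 RUNX-type word (TGTGGT). These words do not overlap one another in the windows shown. A GATA-type word was found for 3 of 9 genes (Gp1ba, Gp5 and Gp6), against 16.6% of 32841 mouse start regions of the same length, and an ETS-type word for 6 of 9, against 39.2%. The RUNX-type word was found for Gp9 alone, against 14% of all start regions. None of these words was found for Ppbp or Treml1, and the regions printed below were taken from those with matches. A match is a description of letters and not of binding. Matched words, read on either strand, are in capitals in the following sequences, each given 5′ to 3′ on the strand of its gene: Gp1ba (chr11:70638872-70639121, plus strand), Gp5 (chr16:30310782-30311031, minus strand), Gp9 (chr6:87777820-87778069, plus strand), Itga2b (chr11:102469884-102470133, minus strand) and Pf4 (chr5:90772185-90772434, plus strand).
Gp1ba: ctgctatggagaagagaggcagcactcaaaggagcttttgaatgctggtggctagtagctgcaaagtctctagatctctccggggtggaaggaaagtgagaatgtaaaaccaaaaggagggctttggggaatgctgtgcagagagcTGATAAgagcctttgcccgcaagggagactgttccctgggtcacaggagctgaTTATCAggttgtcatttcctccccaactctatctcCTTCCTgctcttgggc
Gp5: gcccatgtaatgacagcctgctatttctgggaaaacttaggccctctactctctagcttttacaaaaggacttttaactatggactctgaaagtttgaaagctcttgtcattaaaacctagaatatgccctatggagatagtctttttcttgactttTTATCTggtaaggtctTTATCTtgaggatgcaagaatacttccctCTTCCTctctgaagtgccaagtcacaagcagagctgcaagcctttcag
Gp9: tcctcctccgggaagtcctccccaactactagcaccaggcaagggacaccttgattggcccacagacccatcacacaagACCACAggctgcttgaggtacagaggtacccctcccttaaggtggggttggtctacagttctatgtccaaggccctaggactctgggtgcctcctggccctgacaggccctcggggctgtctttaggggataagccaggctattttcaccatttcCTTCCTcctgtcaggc
Itga2b: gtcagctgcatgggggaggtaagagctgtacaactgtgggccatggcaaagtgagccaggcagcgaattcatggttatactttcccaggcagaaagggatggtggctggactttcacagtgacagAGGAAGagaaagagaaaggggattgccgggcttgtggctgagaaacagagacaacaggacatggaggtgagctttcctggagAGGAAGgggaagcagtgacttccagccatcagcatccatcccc
Pf4: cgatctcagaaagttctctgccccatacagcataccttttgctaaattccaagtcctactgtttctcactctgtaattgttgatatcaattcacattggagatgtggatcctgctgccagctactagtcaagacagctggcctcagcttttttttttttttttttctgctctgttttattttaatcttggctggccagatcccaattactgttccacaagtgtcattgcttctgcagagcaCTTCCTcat
Gp1ba carries 2 GATA-type words, between bases 104 and 46 before the start, and 1 ETS-type word, and Gp5 carries 2 and 1. Itga2b carries 2 ETS-type words, and Gp9 and Pf4 have 1 each, close to the start. Ppbp and Pf4 lie next to each other on chromosome 5, with starts 3917 bases apart on the same strand.

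Values are log2 signals, corrected for background by the scanner software, from which the median over all non-control spots of the array was subtracted. A difference of 1 is therefore a doubling relative to the median spot of the array. Genes are compared with themselves across mice, since probes differ in brightness. Every member had a probe well above background on all 24 arrays, and no such probe was marked as saturated. In each array between 43.9% and 64.4% of spots were well above background, and the median signal ran from 8.66 to 44.8. The 24 arrays lay on 6 slides of 4, and no slide held both ages, so age and slide cannot be told apart. Slides 2 and 5 held both treatments, whereas slides 1, 3, 4 and 6 held a single treatment each. Treatment therefore coincides in part with slide within each age. Arrays from young animals shared 1 scanning day and arrays from old animals shared a different one, which means that age and the day of scanning cannot be told apart. A gene was called when limma's two-sided p was under 0.005 and its Benjamini-Hochberg adjusted p over all genes was under 0.05. From array signals of whole blood alone, more platelets (or fewer of the other cells) and more RNA per platelet cannot be told apart. The study also counted blood cells, and those counts were not used here.

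Arrays that stood apart were as follows. Summed hepatocyte markers, which are not expected in blood, were high on young irradiated replicates 2, 4 and 5 (14.19 to 15.29) and on old irradiated replicates 2, 3 and 5 (13.99 to 14.53), against 6.13 to 6.83 and 6.47 to 8.45 on the other irradiated arrays of each age, 6.40 to 11.54 in unirradiated young mice and 5.41 to 5.92 in unirradiated old mice. Old irradiated replicates 4 and 6 had the lowest median signals, 8.66 and 8.84. These 2 arrays correlated at 0.989 with each other over the genes tested. With the remaining old irradiated arrays their correlations were lower, 0.776 to 0.850. The closest pairs of arrays within a group, young irradiated replicates 2 and 5 and old unirradiated replicates 1 and 6, differed 1.49 and 1.58 times as much as repeat spots within an array, and were kept as separate mice.

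In young mice all 10 genes rose after irradiation, by 1.40 (Pf4) to 2.17 (Gp1ba) on the log2 scale, or 2.64-fold to 4.5-fold, with a median of 1.88. Over all genes 35.8% were called in either direction, 14.4% higher and 21.4% lower, and the median difference was -0.20. Unirradiated and irradiated mice did not overlap for 6 of the 10 genes, a pattern seen in that direction for 9.57% of all genes. In old mice all 10 genes also rose, by 1.32 (Pf4) to 2.10 (Gp1bb), or 2.50-fold to 4.28-fold, with a median of 1.89. Over all genes 25% were called, 7.6% higher and 17.4% lower, and the median difference was -0.25. The groups did not overlap for any of the 10 genes, as for 5.92% of all genes.

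**Figure D1:**
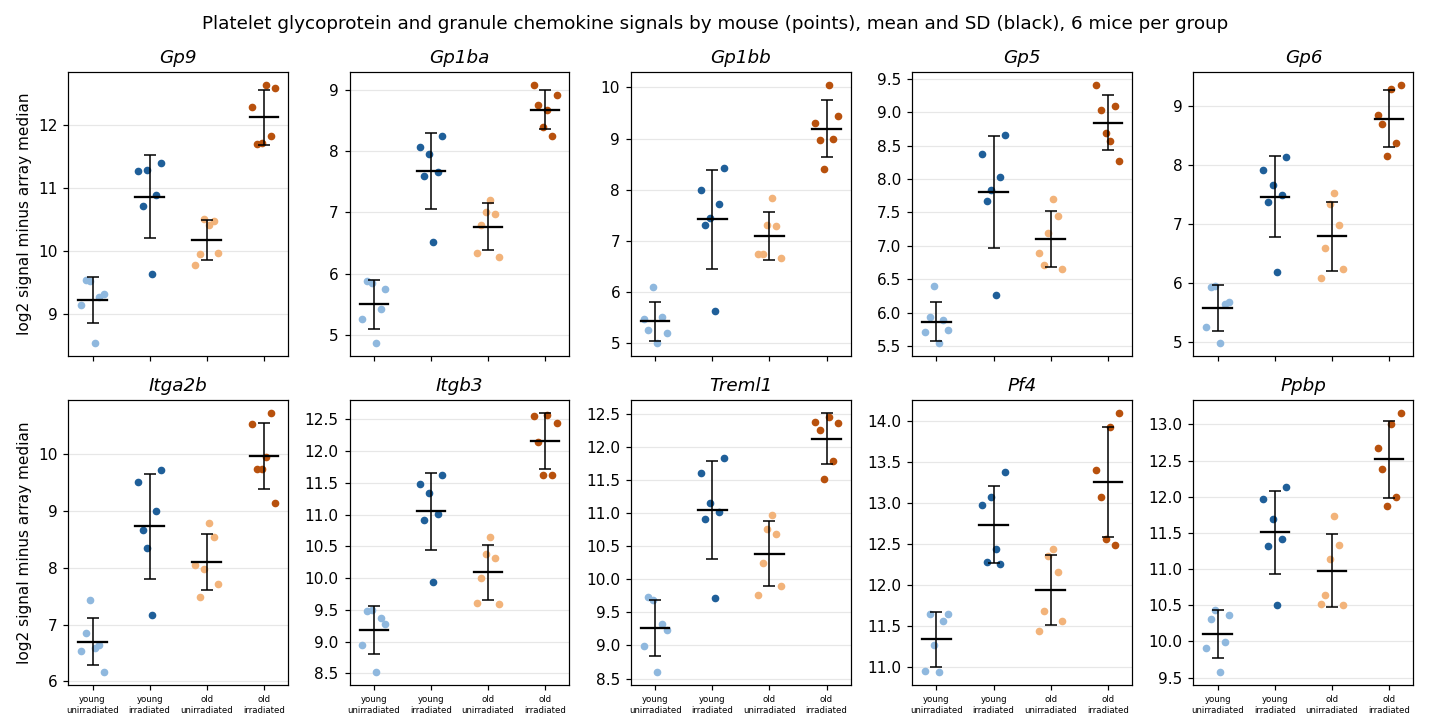
Signal of each of the 10 genes on each array (points, 1 mouse each), as log2 signal minus the array median, in the 4 groups of 6 mice, with the mean and SD in black; the vertical scale differs between panels. Irradiated old mice sit above unirradiated old mice for every gene, and 1 irradiated young mouse (replicate 4) sits low for every gene but Pf4.

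Within the von Willebrand factor receptor, Gp1ba, the chain that holds the binding site, ran from 4.87 (median 5.58) to 5.88 in unirradiated young mice and from 6.52 (median 7.81) to 8.25 in irradiated ones. It ran from 6.27 (median 6.88) to 7.20 in unirradiated old mice and from 8.24 (median 8.71) to 9.08 in irradiated old mice. The treatment groups did not overlap at either age, and the increase was 4.5-fold in young mice (95% confidence interval 2.95 to 6.87, adjusted p = 7.39e-05, limma) and 3.76-fold in old mice (2.58 to 5.49, adjusted p = 0.000385). Gp1bb, the beta chain linked to Gp1ba, ran from 5.0 (median 5.36) to 6.10 in unirradiated and from 5.63 (median 7.58) to 8.43 in irradiated young mice, an overlap made by irradiated replicate 4 alone. In old mice it ran from 6.66 (median 7.01) to 7.83 without and from 8.40 (median 9.15) to 10.05 with irradiation. Its increase was 4.00-fold in young (2.25 to 7.11, adjusted p = 0.00103) and 4.28-fold in old mice (2.69 to 6.83, adjusted p = 0.00068). Gp1bb had the largest SD of the 10 genes among irradiated young mice, 0.96, against 0.38 in unirradiated young mice.

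Gp9, the small subunit needed for surface display of the complex, ran from 8.53 (median 9.29) to 9.53 in unirradiated and from 9.64 (median 11.08) to 11.40 in irradiated young mice. In old mice the ranges were 9.77 (median 10.19) to 10.51 and 11.70 (median 12.06) to 12.64, and no mouse of one treatment reached the other at either age. The gap between the old groups, 1.20, was the widest of any of the 10 genes in the irradiation comparisons. Gp5, which binds the rest of the complex at the surface, ran from 5.54 (median 5.81) to 6.39 in unirradiated young mice and from 6.27 (median 7.94) to 8.66 in irradiated ones, again overlapping only through irradiated replicate 4. In old mice it ran from 6.66 (median 7.04) to 7.71 and from 8.28 (median 8.86) to 9.41, without overlap. The Gp9 increases were 3.13-fold in young (adjusted p = 0.000552) and 3.86-fold in old mice (adjusted p = 0.000443), and those of Gp5 were 3.84-fold (adjusted p = 0.000477) and 3.34-fold (adjusted p = 0.000929).

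Gp6, the collagen receptor, ran from 4.98 (median 5.67) to 5.94 in unirradiated and from 6.19 (median 7.58) to 8.14 in irradiated young mice. It ran from 6.08 (median 6.78) to 7.52 and from 8.15 (median 8.78) to 9.36 in the old groups. The treatments were separated at each age, with increases of 3.71-fold in young (adjusted p = 0.000271) and 3.99-fold in old mice (adjusted p = 0.00105).

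Of the fibrinogen receptor, the Itga2b chain, whose expression marks the megakaryocyte lineage, ran from 6.17 (median 6.61) to 7.42 in unirradiated and from 7.16 (median 8.83) to 9.72 in irradiated young mice. In old mice it ran from 7.49 (median 8.02) to 8.80 and from 9.14 (median 9.85) to 10.72. Only irradiated young replicate 4 fell within the range of its unirradiated group. The Itgb3 chain, which pairs with Itga2b in platelets and with another alpha chain elsewhere, ran from 8.53 (median 9.32) to 9.50 and from 9.94 (median 11.17) to 11.62 in young mice, and from 9.59 (median 10.16) to 10.65 and from 11.62 (median 12.29) to 12.56 in old mice, in each case unirradiated first. Its groups did not overlap. Itga2b rose 4.10-fold in young (2.33 to 7.20, adjusted p = 0.000803) and 3.67-fold in old mice (2.26 to 5.95, adjusted p = 0.00142), and Itgb3 rose 3.64-fold (2.41 to 5.50, adjusted p = 0.000179) and 4.18-fold (2.74 to 6.39, adjusted p = 0.000461).

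Treml1, the granule-stored receptor, ran from 8.61 (median 9.28) to 9.73 in unirradiated and from 9.72 (median 11.09) to 11.83 in irradiated young mice, so that the groups touched. In old mice it ran from 9.77 (median 10.46) to 10.97 and from 11.51 (median 12.31) to 12.45. The increases were 3.43-fold in young (adjusted p = 0.000675) and 3.33-fold in old mice (adjusted p = 0.0011).

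The chemokine genes had the 2 smallest differences at each age. Pf4, platelet factor 4, ran from 10.94 (median 11.42) to 11.65 in unirradiated and from 12.26 (median 12.71) to 13.39 in irradiated young mice. In old mice it ran from 11.44 (median 11.92) to 12.44 without and from 12.49 (median 13.24) to 14.10 with irradiation, where the gap between the groups was 0.05. Pf4 rose 2.64-fold in young (1.87 to 3.74, adjusted p = 0.000354) and 2.50-fold in old mice (1.51 to 4.13, adjusted p = 0.00947). Ppbp, the precursor of several platelet chemokines, ran from 9.58 (median 10.15) to 10.44 and from 10.51 (median 11.55) to 12.13 in young mice, and from 10.50 (median 10.89) to 11.73 and from 11.87 (median 12.53) to 13.16 in old mice, unirradiated first. Its groups did not overlap, and it rose 2.65-fold in young (1.80 to 3.91, adjusted p = 0.00079) and 2.90-fold in old mice (1.81 to 4.64, adjusted p = 0.00337).

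**Figure D2:**
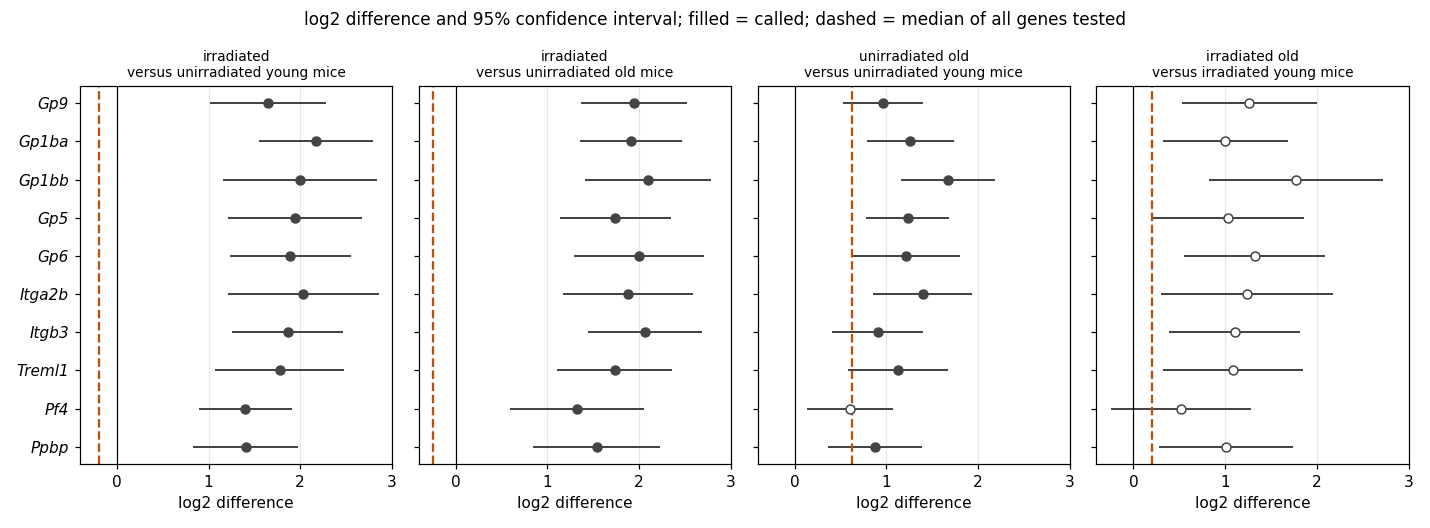
Difference in log2 signal (points) with its 95% confidence interval (lines) for each gene in 4 comparisons, 6 mice against 6, from limma; filled points were called, open points were not, and the dashed line is the median over all 17470 genes. After irradiation all intervals lie above 0 at either age, whereas between the ages several intervals include the median of all genes, which was 0.62 in unirradiated mice.

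Irradiated young replicate 4 was the lowest of its group for 9 of the 10 genes, and its mean over the 10 genes was 8.40, against 9.48 in the next irradiated young mouse and 8.21 in the highest unirradiated one. Pf4 was the exception, since its 12.44 in that mouse lay above the 12.26 and 12.29 of replicates 5 and 2. The same array had the highest hepatocyte sum of all 24 (15.29), and the part of that signal in the result was not tested. Without the 3 irradiated young arrays with high hepatocyte markers all 10 genes were called (33.3% of all genes) and their median difference was 2.32. Without the corresponding 3 old arrays, which left replicates 1, 4 and 6, all 10 were called (40.5% of all genes) with a median of 2.07. The median difference was thus larger at each age without the arrays with high hepatocyte markers. In old mice that fit rested largely on replicates 4 and 6, which were much alike and stood apart from the other arrays. Within the slide that held both treatments, 2 arrays against 2, the differences were 1.03 (Pf4) to 2.68 (Itga2b) in young mice. In old mice they were 1.38 (Pf4) to 2.39 (Itgb3). The corresponding medians over all genes were -0.23 and -0.11.

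**Figure D3:**
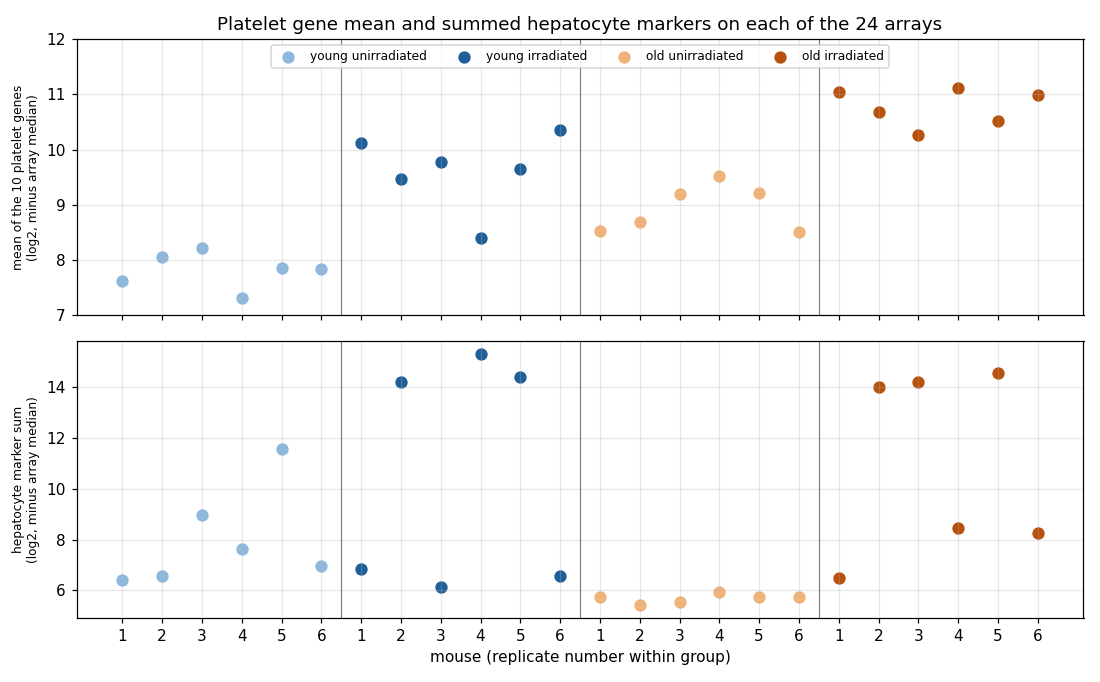
Mean log2 signal (minus the array median) of the 10 platelet genes (top) and log2 of the summed signal of 12 hepatocyte markers (bottom) on each of the 24 arrays, coloured by group. Young irradiated replicate 4 has the lowest platelet mean of the irradiated arrays (8.40) and the highest hepatocyte sum (15.29).

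With the 75th percentile of each array, quantile normalization, the median over spots well above background on all arrays, or the log2 values that the authors deposited, all 10 genes were called at both ages, with medians of 1.82 to 1.91 in young and 1.78 to 2.24 in old mice. Of all genes, 37.9%, 38.3%, 38.1% and 21.8% passed in young mice under these settings, in the order given. The shares for old mice were 25%, 25.1%, 24.6% and 16.6%. With normexp background correction the median differences were larger, 2.38 and 2.45, but fewer of the 10 genes were called. In young mice 9 passed (all but Ppbp), against 7.09% of all genes. In old mice 0 passed, and adjusted p ran from 0.0606 to 0.0954. The median over all genes in old mice, -0.25 under median scaling, lay between -0.01 and 0.34 under these alternatives. With normexp 8 of 11773 genes were called in old mice over the whole array.

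In unirradiated mice, 9 of the 10 genes were called higher in the old than in the young under median scaling, by 0.88 (Ppbp) to 1.67 (Gp1bb), and Pf4 differed by 0.60 (95% confidence interval 0.14 to 1.06, adjusted p = 0.0197). Over all genes 63.8% were called, 48.2% higher and 15.5% lower, and the median difference was 0.62. The groups did not overlap for the same 9 genes, as for 37.3% of all genes in that direction. Gp1bb was 3.19-fold higher (2.26 to 4.51, adjusted p = 4.63e-05), Itga2b 2.63-fold (1.82 to 3.80, adjusted p = 0.000233) and Gp1ba 2.40-fold (1.74 to 3.31, adjusted p = 0.000193). Gp9, Itgb3 and Ppbp differed least among those called, with 1.95-fold, 1.87-fold and 1.84-fold. The count rested on the scaling. It came to 2 with the 75th percentile (Gp1bb and Itga2b), 1 with quantile normalization (Gp1bb), 1 with the median over spots well above background on all arrays (Gp1bb) and 0 with either normexp or the deposited values. The shares of all genes called under these settings, in the same order, were 37.8%, 37.9%, 36.5%, 0% and 25.9%, so the members were not called more often than other genes there. Their median differences were 0.51 to 0.66, and Pf4 was 0.01 lower in old mice in the deposited values. The median over all genes moved from 0.62 to between -0.11 and 0.16 with these settings. The excess of the median of the 10 genes over the median of all genes moved less, between 0.45 and 0.69 over the 6 settings. Rescaling a whole array shifts both medians alike, so under such settings the excess can move only through which genes were tested.

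**Figure D4:**
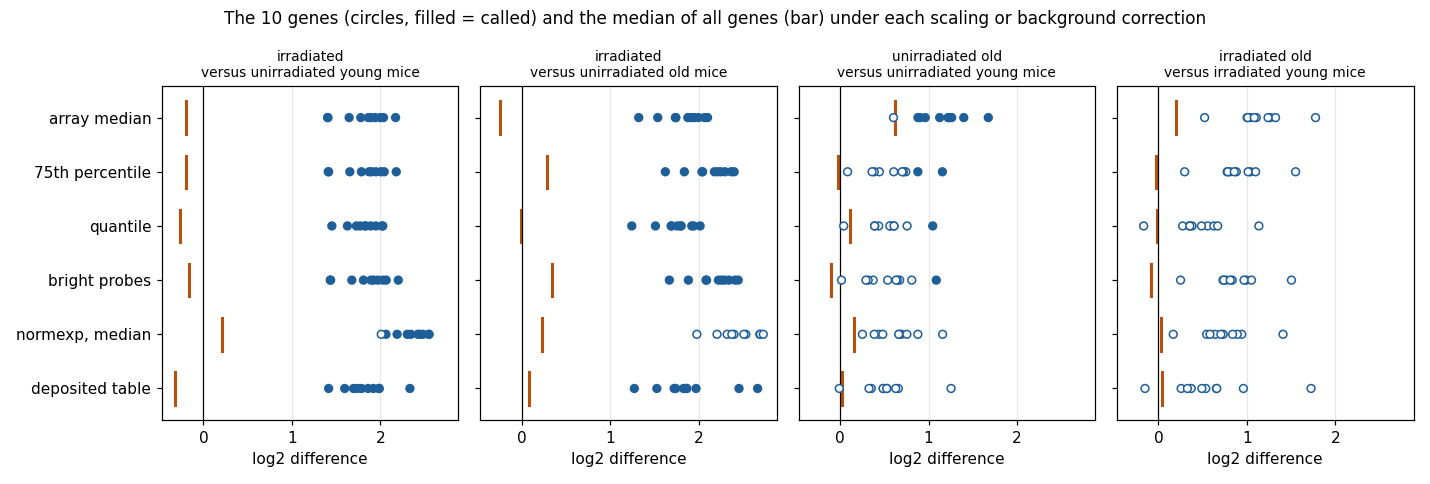
Difference in log2 signal of the 10 genes (circles, filled where called) and the median over all genes tested (bars) under 6 ways of scaling or background correction, in rows, for 4 comparisons. The medians of the irradiation differences lie between 1.78 and 2.45 in all rows, and the filled circles for unirradiated old against young mice, 9 of 10 in the top row, number 2 or fewer in the others.

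Between irradiated old and irradiated young mice the differences were 0.52 (Pf4) to 1.77 (Gp1bb) with a median of 1.09, and limma called 0 of the 10 genes, against 2% of all genes called, 1.4% higher and 0.601% lower. Of the 10 genes, 9 had an unadjusted p under 0.05, as had 3736 of all 17470 genes. Adjusted p of the 10 ran from 0.0534 (Gp1bb) to 0.427 (Pf4). Mice did not overlap for Gp9 and Gp6, against 4.45% of all genes higher without overlap. Leaving out old irradiated replicates 2, 3 and 5, 5 genes were called (10.6% of all genes) and their median was 1.40. Replicates 4 and 6, the 2 arrays that stood apart, were then 2 of the old irradiated arrays left, beside replicate 1. Leaving out young irradiated replicates 2, 4 and 5, 0 were called (0.132% of all genes) and the median was 0.63. Leaving out all 6 of these arrays, 0 were called (0.166% of all genes) with a median of 0.94. With 1 fit of all 24 arrays, in which the 4 groups share an estimate of the spread, 9 members and 14.4% of all genes were called. The response to irradiation was compared between the ages directly: the difference of the differences ran from -0.26 (Gp1ba) to 0.30 (Gp9), adjusted p from 0.62 to 0.955, and 0 of the 10 genes (0 at an unadjusted p under 0.05) and 0% of all genes were called, although 4112 of 17470 genes had an unadjusted p under 0.05. The 95% confidence intervals reached from -1.20 to 1.14, so the data do not resolve differences between the ages within those bounds. The median interaction of the 10 genes, 0.03, moved when arrays with high hepatocyte markers were left out. It was 0.48 without old irradiated replicates 2, 3 and 5, -0.46 without young irradiated replicates 2, 4 and 5 and 0.01 without all 6, with 0 members called each time, while 34.1%, 0% and 20.7% of all genes were called.

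The signals of the 10 genes did not move by equal amounts. Since any array-wide scaling cancels in a difference between genes on 1 array, each gene was also taken relative to the mean of the other 9 on its array, and centred on the mean of unirradiated young mice. Pf4 then stood at -0.46 ± 0.57 (SD, n = 6) in irradiated young, -0.58 ± 0.11 in unirradiated old and -1.14 ± 0.45 in irradiated old mice. Irradiated old mice ran from -1.72 to -0.44 and unirradiated young mice from -0.52 to 0.32, so the ranges overlapped slightly. Ppbp stood at -0.45 ± 0.14, -0.27 ± 0.12 and -0.59 ± 0.28, and irradiated young mice lay below all unirradiated young mice. Gp1bb moved the other way, to 0.21 ± 0.35, 0.61 ± 0.11 and 0.92 ± 0.31, and old mice lay above young mice in each treatment without overlap. Itga2b spread most among irradiated old mice, from -0.80 (replicate 6) to 1.47 (replicate 5). Settings that only rescale a whole array cannot change these relative values. Of the 6 settings of scaling and background correction, only quantile normalization, normexp and the deposited values could therefore differ from the main one. With these and the main setting, the lag of Pf4 behind the other genes was between -0.46 and -0.30 after irradiation of young mice. In old mice it was between -0.69 and -0.52. The lead of Gp1bb stayed between 0.56 and 0.81 in unirradiated old against young mice. These are descriptions of the genes that differed most, picked after their values were seen, and carry no test. Effects that depend on the probe do not cancel. In unirradiated young mice Pf4 and Ppbp had the highest mean signals of the 10 (11.34 and 10.10) and Gp1bb and Gp1ba the lowest (5.42 and 5.50). For Itgb3 a dimmer probe rose by 2.38 in young and 2.49 in old mice, against 1.86 and 2.06 for the brighter one. The part of probe brightness in these differences was not tested.

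**Figure D5:**
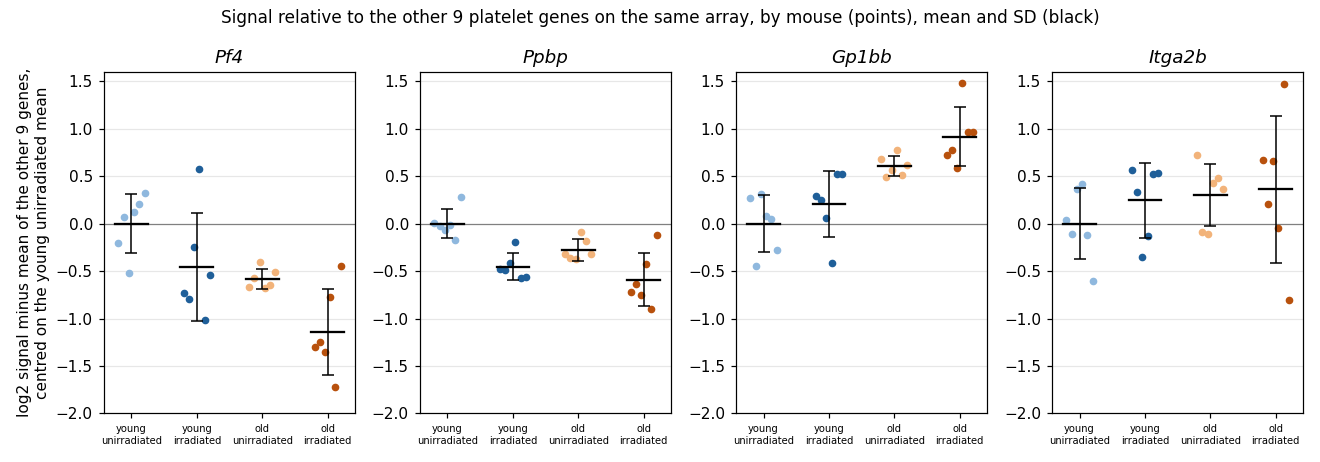
Signal of Pf4, Ppbp, Gp1bb and Itga2b on each array (points) relative to the mean of the other 9 platelet genes on that array, in log2 units and centred on the unirradiated young mean (line at 0), with the group mean and SD in black. Pf4 and Ppbp lie lowest in irradiated old mice (-1.14 and -0.59), where Gp1bb lies highest (0.92).

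Gp1bb and Itgb3 had further probes. In the mm9 coordinates of the array design, the Gp1bb probes lie on the minus strand of chromosome 16, at chr16:18621107-18621166 (used above), chr16:18621717-18621776 and chr16:18621535-18621594. The second probe rose by 2.02 in young (adjusted p = 0.00372 over 24130 probes) and 2.29 in old mice (adjusted p = 0.000504), close to the 2.00 and 2.10 of the first. The remaining probe was well above background on 0 unirradiated and 3 irradiated young arrays and on 1 and 6 old arrays, so no difference is given for it. A probe for Sept5, a septin gene whose probe lies just upstream on the same strand (chr16:18623011-18623070), differed by 0.28 in young (adjusted p = 0.196) and rose by 1.23 in old mice (adjusted p = 0.0159). The other Itgb3 probe, at chr11:104528625-104528684 against chr11:104531672-104531731 for the brighter one, rose by 2.38 in young (adjusted p = 0.000111) and 2.49 in old mice (adjusted p = 0.000124). It was also called between irradiated old and young mice (1.28, adjusted p = 0.0418), where the brighter probe was not (1.10, adjusted p = 0.0839 over probes).

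Other platelet genes were counted in lists drawn up by function, and a gene is counted as risen or fallen where it was called. Over all genes 14.4% were called higher and 21.4% lower in young mice, and 7.6% and 17.4% in old mice. Of 20 tested genes for other receptors and adhesion proteins, 16 rose and 2 fell in young mice (median 2.00) and 18 rose and 1 fell in old mice (median 1.62). Clec1b, the podoplanin receptor, rose by 1.84 and 1.78, Itga6, a laminin receptor chain, by 1.99 and 1.62, Cd9, a tetraspanin, by 1.46 and 1.25, and Cd226, an adhesion receptor shared with lymphocytes, by 2.14 and 1.46. Tbxa2r, the thromboxane receptor, fell at both ages, by 1.59 and 1.18, and Cd36, a scavenger receptor, fell in young mice (by 1.31). Of 22 genes for other granule cargo and secretion, 18 rose and 1 fell in young and 13 rose and 1 fell in old mice, with medians of 1.64 and 1.43. Vwf, the ligand of the GPIb complex, rose by 1.66 and 1.67, Clu (clusterin) by 1.84 and 1.64 and Srgn, the granule proteoglycan, by 1.61 and 1.26, whereas Ccl5, a chemokine also made by lymphocytes, differed by 0.09 (adjusted p = 0.842) and -0.01 (adjusted p = 0.989). The gene that fell in this list was Vps33b, needed for alpha granule formation, by 0.87 and 1.53.

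Of 18 cytoskeletal genes, 15 rose in young and 16 in old mice and 0 fell, with medians of 1.57 and 1.36; Myl9, the myosin light chain, rose by 1.68 and 1.65 and Tagln2 by 1.62 and 1.07. Of 24 genes of collagen receptor and integrin signalling, 13 rose and 1 (Plcg2) fell in young and 10 rose and 1 (Plcg2) fell in old mice, with medians of 0.96 and 0.82. Fcer1g, the signalling partner of Gp6, rose by 1.40 and 1.13, Tln1 (talin), which activates integrins, by 1.49 and 1.27, and Rasgrp2, an activator of Rap1, by 1.53 and 1.41. Of 5 enzymes of thromboxane and lipoxygenase pathways, 4 rose at each age, among them Ptgs1 (cyclooxygenase), by 2.41 and 2.16, and Tbxas1 (thromboxane synthase), by 2.16 and 2.09, whereas Ptges3, a prostaglandin synthase and co-chaperone, differed by 0.05 and -0.79 without being called. Of 14 transcription factors of megakaryocytes, 8 rose and 3 fell in young and 5 rose and 1 fell in old mice. Their medians were 1.05 and 0.33. The falls stand against 21.4% and 17.4% of all genes called lower. Nfe2 rose by 1.52 and 1.45, Lmo2 fell by 1.66 in young mice and was at -1.25 in old mice (adjusted p = 0.187), and Lyl1 fell by 0.53 in young mice and was at -0.45 in old mice (adjusted p = 0.135). Ldb1, a cofactor of GATA1 complexes, fell by 0.89 and 1.38. Under the other 5 settings of scaling and background correction the medians of all 6 lists stayed above 0 at both ages, and with normexp 0 or 1 gene of a list was called higher in old mice. Between the unirradiated ages these lists had medians of 0.80 to 1.10, against 0.62 over all genes, and of 0.18 to 0.58 under the other settings. Between the irradiated ages 1 of the 24 signalling genes was called (Lat, an adaptor shared with T cells, 1.26, adjusted p = 0.0414) and 0 genes of the other 5 lists, against 2% of all genes.

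The genes whose pattern was most like that of the 10 were ranked by the root mean square, over the 24 arrays, of the difference between a gene's value, centred on its mean, and the mean centred value of the 10. The value over all genes was 1.44 in the median, and the members themselves ran from 0.11 (Treml1) to 0.49 (Pf4). Among the nearest others were Alox12 (0.11), platelet 12-lipoxygenase, Slc6a4 (0.13), the serotonin transporter, Mrvi1 (0.15), a target of cGMP-dependent kinase, Tpm4 (0.16), a tropomyosin, Gas2l1 (0.16), a cytoskeletal linker, Ly6g6c (0.17), Rhoj (0.17), Mast2 (0.18) and Nomo1 (0.19). Since the ranking used the same 24 arrays, it fixed that these genes move like the members. These 9 were called higher after irradiation at both ages, by 1.58 (Mast2) to 1.95 (Ly6g6c) in young and by 1.62 (Mast2) to 2.10 (Ly6g6c) in old mice. Alox12 and Tpm4 were also in the lists above.

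Markers of other blood cells moved in several directions in the same arrays. Counts are of genes called, against 14.4% of all genes higher and 21.4% lower in young mice, and 7.6% and 17.4% in old mice. All 9 tested B cell markers fell in young mice (median -2.47) and 8 of 9 in old mice (median -3.80). Of 9 T cell markers 7 fell in young and 0 in old mice, with medians of -1.13 and -0.63. Of 10 tested erythroid markers, 2 rose and 5 fell in young mice (median -1.44) and 1 rose in old mice (median -0.62), and of 12 neutrophil markers 5 rose in young and 0 in old mice (medians 0.84 and 0.63). Of 9 monocyte markers, 4 rose and 1 fell in young mice (median 0.52) and 3 fell in old mice (median -0.73). Of 6 natural killer cell markers, 4 rose in young mice and 0 in old mice (medians 1.53 and 0.38). Of 7 tested markers of endothelial cells, which share several surface proteins with platelets, 5 rose at each age (medians 1.88 and 2.22), the summed signal of the list ran from 7.75 to 9.14 and from 7.81 to 9.10 in young and from 7.67 to 8.52 and from 7.46 to 9.67 in old mice (unirradiated first), and 2 of its 12 genes, Tek and Emcn, were well above background on 0 of 24 arrays. Of 9 tested macrophage markers, 8 rose in young and 1 in old mice (medians 4.69 and 2.11), and Cd163, of the same list, was well above background on 0 arrays. Of 8 tested hepatocyte markers, 0 rose in young and 7 in old mice (medians 2.99 and 6.43). The summed B cell markers ran from 10.68 to 10.98 in unirradiated and from 7.72 to 9.20 in irradiated young mice, and from 10.87 to 11.86 and from 6.16 to 9.78 in old mice. The summed erythroid markers, from RNA whose globin transcripts had been depleted, ran from 13.80 to 14.86 and from 13.27 to 14.85 in young and from 13.93 to 15.14 and from 13.20 to 16.14 in old mice, so that treatments overlapped at each age. The part of these cells in the platelet gene differences was not tested.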

How the data were processed

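Blood RNA of 24 mice was labelled with Cy3 and hybridised to single-colour Agilent 4x44K arrays, 1 mouse per array. The intensity values that the authors deposited came from Feature Extraction 12.0.2 (submitters' processing notes), which subtracted background; array medians still differed. The log2 values of a second deposited table are the authors' own processed set of 17166 probes; its column medians ran from 5.77 to 6.73, its exact centring is not given in the sources used here, and it served as an alternative. The coordinates in the array design are mm9.

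From the intensities of 43020 non-control spots, log2 was taken and the array median subtracted, as the study's methods state median normalization. Non-uniform spots were set to missing and repeat spots averaged. A probe was dropped if its spot failed for uniformity or background on at least 25% of arrays (24130 of 39429 remained), the brightest probe represented a gene (18737 genes), and genes that differed 1.5-fold from their median in fewer than 20% of the arrays (5 arrays) were dropped, leaving 17470. Each comparison was fitted on its 12 arrays, and the interaction on 24, with limma 3.58.1 (R 4.3.3), two-sided, after tests on simulated data. The number of arrays limits the precision. Replicate numbers were not taken to pair mice, and p-values measure the spread between animals. Named genes were the 10 members in every comparison, up to 4 genes of highest mean signal in each other platelet list, the 10 genes most like the members and Sept5, and genes that fell within a list were named after their values were seen. Some genes that this rule names are not reported here. Members and lists were chosen with earlier results of these data known. Blood counts were not used here.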

Additional observations from a re-analysis of the deposited data

Results flagged for a closer look

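In a group of 6 mice, a value was picked out when its gap to the nearest other value, divided by the range of the group, exceeded Dixon's 95% critical value, which chance passes in about 1 of 20 groups. Of 40 groups (10 genes in 4 groups), 1 value met it: Gp1ba in young irradiated replicate 4, with a log2 signal of 6.52, whose gap was 0.627 of the range. Without that mouse all 10 genes were called in young mice, as in the main fit, where 35.8% of all genes were called.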

How the results depend on the processing

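Irradiation called all 10 genes in young mice under every alternative but normexp background correction (9), and all 10 in old mice but for normexp (0) and the replicate block (9, without Pf4). Leaving out 1 array at a time, 10 to 10 genes were called in young mice, 10 to 10 in old mice, 8 to 9 between unirradiated old and young mice, 0 to 0 between irradiated old and young mice, and 0 to 0 for the interaction. The shares of all genes called in the main fits were, in the same order, 35.8%, 25%, 63.8%, 2% and 0%. The gene lost among unirradiated mice was Ppbp, without young replicate 1 (adjusted p = 0.00952) or 4 (0.00958) or old replicate 3 (0.00845) or 5 (0.0101). Between unirradiated ages the count of 9 fell to 2 (75th percentile), 1 (quantile normalization), 1 (scaling on spots well above background on all arrays), 0 (normexp) and 0 (deposited table). Between irradiated ages the count of 0 became 1 when the probes of each gene were averaged (Gp1bb), 1 with trend and robust variance (Gp1bb), 9 with 1 fit of all 24 arrays, 7 with slide as a random block (estimated correlation -0.08) and 5 without old irradiated replicates 2, 3 and 5, where 2.03%, 2.29%, 14.4%, 7.68% and 10.6% of all genes were called. Since no slide held both ages, the slide block does not separate slide from age, and its negative correlation narrows the standard errors between the ages. The count between irradiated ages was 0 without the young arrays with high hepatocyte markers, without all 6 such arrays, and without old irradiated replicates 4 and 6. Of all genes, 0.132%, 0.166% and 28.5% passed there. These 3 settings and counting the closest pairs of arrays as 1 sample were chosen after seeing the data, and leaving out old irradiated replicates 2, 3 and 5 was chosen from their hepatocyte markers in earlier results of the same data. Counting the pairs so gave 10, 10, 9, 0 and 0, against 31.8%, 18.5%, 59.3%, 0.544% and 0% of all genes. With the replicate number as a block the counts were 10, 9, 8, 0 and 0, against 28.8%, 19.5%, 58.2%, 0.0114% and 0% of all genes. Deviations of same-numbered mice correlated at -0.29 to 0.30 in young and -0.20 to 0.34 in old mice, and 1 and 6 of 12 arrays were closest to their own number. These values do not settle whether the numbers pair mice, and the main fits took the mice as unpaired. The interaction stayed at 0 under all alternatives. The cause was not tested. Precision is bounded by 6 mice per group, and the probes used for the 10 genes were well above background on all 24 arrays.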
